A study of Ovis aries with 2 samples.

Results

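KLF2, KLF4 and THBS1 are 3 of the 12652 gene symbols measured in nuclei of sheep cerebral cortex. They were chosen by symbol, and chosen because their measured levels were higher in one library than in the other, so that difference is given as a description and nothing is concluded from it. The account turns on which cell classes and which depths of barcodes hold the 3 genes. The choice did not name these, but it was not independent of them, because the libraries differed in classes and in depths. A gene chosen as higher in a library would tend to lie in the classes and depths that library holds more of. The genes were also chosen with earlier results of these data known, so their classes and depths are a description too.

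KLF2 and KLF4 are zinc finger transcription factors of the Kruppel-like family. In endothelium, as known mainly from human and mouse work, laminar flow induces both through the kinases MEKK2/3, MEK5 and ERK5 and the MEF2 factors, and both favour an anti-inflammatory, anti-thrombotic state. In myeloid cells KLF2 restrains inflammatory activation and KLF4 takes part in monocyte differentiation. THBS1 encodes thrombospondin-1, a secreted matricellular glycoprotein that binds CD47 and CD36 and can activate latent TGF-beta. It is known from platelets, endothelium, macrophages and, in the developing rodent brain, astrocytes, where it promotes synapse formation.

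Both libraries came from the cortex of adult wild-type Rambouillet ewes of 18 to 36 months, untreated in life and dissected post-mortem, and both carry the same batch label. In the pre-processed library, nuclei were isolated straight from the tissue. In the post-processed library, debris and red blood cells were removed before isolation. The description of the study speaks of a single ewe, and there was 1 library per condition, so no test was possible, no p-value is given, and all intervals (95%) cover counting error only. The post-processed treatment label says that nothing was removed, against its title and the design text, so each direction rests on the titles.

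Counts of unique molecular identifiers (UMIs) were 9580441 in 2125 pre-processed barcodes and 794203 in 905 post-processed barcodes, and about 5000 nuclei per condition were stated. The medians were 2524 and 146 UMIs per barcode. Barcodes with at least 100 detected genes were treated as nuclei, which kept all pre-processed barcodes and 494 post-processed ones, with a median of 667.5 UMIs. No barcode sequence occurred in both libraries. Joint clustering gave 14 clusters, and classes carry the ending "-like" where marker genes allowed a name. The post-processed nuclei comprised 180 microglia-like, 57 oligodendrocyte-like, 29 endothelial-like and 2 astrocyte-like nuclei, and 226 nuclei of an unnamed cluster with a median of 230 UMIs, called the shallow cluster here. The pre-processed nuclei included 941 neuron-like, 357 astrocyte-like, 179 oligodendrocyte-like, 85 microglia-like and 8 endothelial-like nuclei.

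KLF2 had 36 UMIs in 28 of 2125 pre-processed nuclei and 359 UMIs in 164 of 494 post-processed nuclei. Per 1000000 UMIs (CPM) this was 3.76 (2.63 to 5.20) against 469 (422 to 520), a log2 ratio of 6.95 (6.47 to 7.50). Nuclei were then thinned to 200 UMIs each, without the 89 post-processed nuclei under that depth. A KLF2 UMI remained in 0.188% of nuclei before processing (0.0513 to 0.481%) and in 11.9% after it (8.87 to 15.4%). KLF4 had 1 UMI before processing and 42 UMIs in 26 nuclei after it, which was 0.104 CPM (0.00264 to 0.582) against 54.9 CPM (39.6 to 74.2). THBS1 had 33 UMIs in 26 nuclei before and 34 UMIs in 7 nuclei after, which was 3.44 CPM (2.37 to 4.84) against 44.4 CPM (30.8 to 62.1). Of 7614 genes with at least 20 UMIs over both libraries, 30.4% were at least 2-fold higher and 24.7% at least 2-fold lower in post-processed nuclei, and all 3 genes were among the higher ones, as their choice required. When libraries were scaled by the median ratio of genes well counted in both, all log2 ratios over all nuclei were 0.77 lower, which put 15.6% of the genes among the higher and 37.1% among the lower, and the 3 genes stayed past 2-fold.

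Among post-processed barcodes, KLF2 was carried by the endothelial-like, shallow and microglia-like groups. The 29 endothelial-like nuclei had 40 KLF2 UMIs in 14 nuclei, or 803 CPM (574 to 1094). The shallow cluster had 53 UMIs in 38 nuclei, or 766 CPM (574 to 1002). The microglia-like nuclei had 260 UMIs in 107 nuclei, with at most 13 in 1 nucleus, or 526 CPM (464 to 594). The 411 barcodes under 100 genes had 14 UMIs in 14 barcodes, or 483 CPM (264 to 810). Neighbours in this order had overlapping intervals. Oligodendrocyte-like nuclei stood below all 4, with 6 UMIs in 5 nuclei and 43.1 CPM (15.8 to 93.8). With nuclei classed by their marker UMIs instead of clusters, the oligodendrocyte-like level was 222 CPM (170 to 285) and the microglia-like level 689 CPM (598 to 789). After thinning to 200 UMIs, KLF2 was seen in 13.3% of microglia-like nuclei (8.73 to 19.2%), 15.3% of shallow-cluster nuclei (9.75 to 22.5%) and 10.3% of endothelial-like nuclei (2.19 to 27.4%). It was seen in 0 of 57 thinned oligodendrocyte-like nuclei, whose unthinned share was 8.77% at a median of 2434 UMIs, against 59.4% in microglia-like nuclei at a median of 1535 UMIs.

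**Figure D1:**
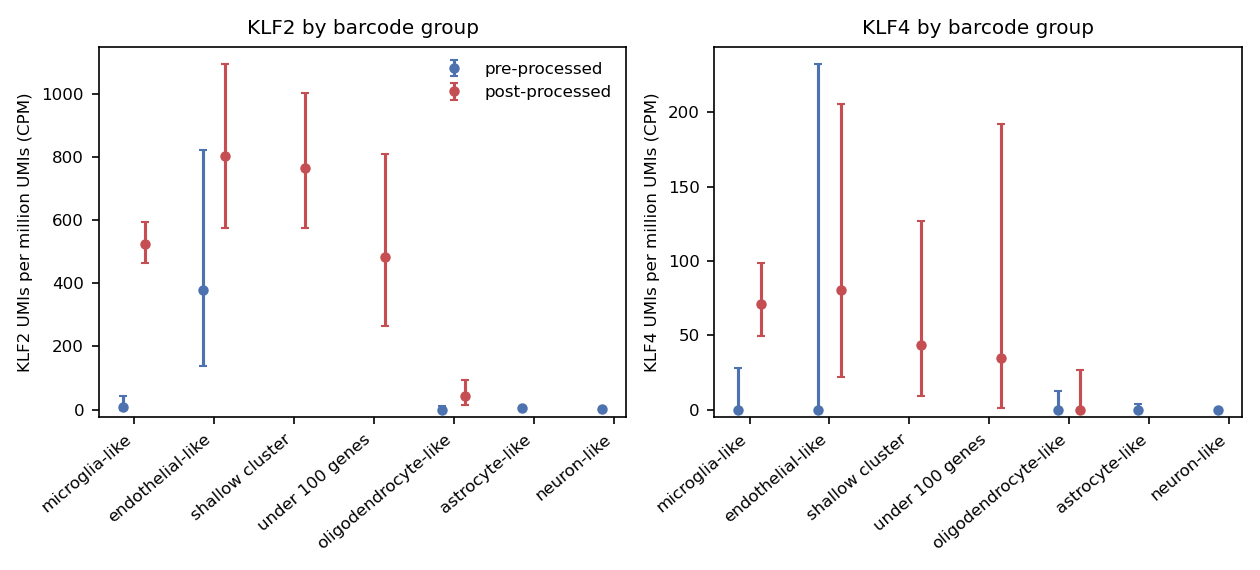
Levels of KLF2 (left) and KLF4 (right) in CPM, by barcode group, with exact 95% Poisson intervals that cover counting error only. Blue points are the pre-processed and red points the post-processed library, and groups of fewer than 5 barcodes are not drawn. Post-processed microglia-like nuclei sit at 526 CPM for KLF2 against 7.61 CPM in pre-processed ones, while the endothelial-like intervals of the libraries overlap.

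In the pre-processed library the 8 endothelial-like nuclei held 6 KLF2 UMIs in 3 nuclei, 4 of them in 1 nucleus, or 378 CPM (139 to 822). They were the highest pre-processed group. The 85 microglia-like nuclei had 1 KLF2 UMI, or 7.61 CPM (0.193 to 42.4). Neuron-like nuclei had 12 UMIs, or 1.90 CPM (0.982 to 3.32), astrocyte-like nuclei 4 UMIs, or 3.79 CPM (1.03 to 9.70), and oligodendrocyte-like nuclei 0 UMIs, which allows up to 10.1 CPM. An unnamed cluster of 334 shallow nuclei led by S100B, PTGDS and NEFL had 8 KLF2 UMIs, or 14.5 CPM, and the 1 KLF4 UMI of the library.

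The log2 ratio of post-processed over pre-processed KLF2 was computed within both classes. It was 5.53 (3.62 to 11.42) in microglia-like nuclei and 0.99 (-0.16 to 2.62) in endothelial-like nuclei, whose interval includes no difference. Endothelial-like nuclei were few, at 8 and 29, and their markers differed between the libraries. Mural markers summed to 6169 CPM before processing and 1486 CPM after it in this class, and endothelial markers to 8876 and 11548 CPM. The part of this in the endothelial-like ratio was not tested. At resolution 1 the pre-processed microglia-like clusters held 0 KLF2 UMIs. The log2 ratio to a limit of 3 counts was 4.01 (2.45 to 6.30) there, so it is not comparable with 5.53. At resolution 0.2 the ratio was 3.47 (2.50 to 4.89). There no endothelial-like class was separated, and the microglia-like class held 92 pre-processed and 431 post-processed nuclei. The main clustering had 85 and 180, so 3.47 does not stand for microglia-like nuclei alone. Whether the microglia-like and endothelial-like classes differ was not tested. In microglia-like nuclei 10.2% of 4033 genes were at least 2-fold higher and 12.2% at least 2-fold lower, and KLF2 and KLF4, the 2 genes of the 3 with enough UMIs there, were both among the higher ones with 0.5 UMIs added to each side. The genes were chosen on this contrast between the libraries, so nothing is read from that count. The 9 microglial markers measured summed to 11123 CPM before processing and to 10680 CPM after it in this class, and none of the 9 was at 0 in either library. Markers of other classes were less alike in these nuclei. Neuron markers were at 4385 and 2089 CPM, astrocyte markers at 807 and 68.7 CPM and oligodendrocyte markers at 1736 and 2145 CPM.

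The finer clusters of post-processed microglia-like nuclei differed in KLF2 level. A cluster of 127 post-processed and 1 pre-processed nuclei, led by DMP1, IL1A, FOS and VNN1, had 717 CPM in the post-processed library. A cluster of 20 post-processed and 57 pre-processed nuclei, led by SUSD3, CYTH4, P2RY12 and CSF1R among others, had 7 KLF2 UMIs and 269 CPM after processing. Its pre-processed nuclei had 0 UMIs, which allows up to 43.0 CPM. Another cluster, left unnamed and of 27 nuclei from each library, had microglial P2RY12 and oligodendrocyte ERMN among its leading genes. It was at 256 CPM after and 16.6 CPM (1 UMI) before processing. Intervals after processing were 108 to 553 CPM in the SUSD3-led cluster, on 4 nuclei with KLF2, and 187 to 343 CPM in the unnamed one. The 1 UMI before processing gave 0.421 to 92.6 CPM. KLF2 was thus higher after processing in both of these mixed clusters, but it was chosen on this contrast, so nothing is concluded from that. The genes that formed the clusters include KLF2's neighbours in expression, such as FOS, so the order of the clusters is a description.

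KLF4 followed the same groups at fewer UMIs. Post-processed microglia-like nuclei held 35 of its 43 UMIs, in 20 of 180 nuclei, or 70.8 CPM (49.3 to 98.4). Pre-processed microglia-like nuclei had 0, which allows up to 22.8 CPM. The log2 ratio of the post-processed level to that limit, taken as 3 counts, was 1.63 (-0.03 to 3.98). With the 0 itself as the count, its interval began at 1.26 and had no upper bound, for counting error only. KLF4 was chosen on this contrast, so nothing is concluded from it. Endothelial-like nuclei had 4 UMIs, or 80.3 CPM (21.9 to 206), the shallow cluster 3 UMIs, or 43.4 CPM (8.94 to 127), and barcodes under 100 genes 1 UMI. Oligodendrocyte-like nuclei had 0, which allows up to 21.6 CPM. None of these groups other than the oligodendrocyte-like one differed from the microglia-like level beyond its counting interval.

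KLF4 often came with KLF2. Of 27 post-processed barcodes with a KLF4 UMI, 16 (59.3%) also held KLF2, against 18.5% of the other barcodes, but the KLF4 barcodes were far deeper, with a median of 2104 against 138 UMIs. Within microglia-like nuclei the shares were 65.0% (13 of 20) and 58.8%, at medians of 3123 and 1493.5 UMIs. Thinned to 1000 UMIs, 4 of 5 microglia-like nuclei with KLF4 held KLF2, against 41.3% of the others, a count too small to show a difference.

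KLF2 was found at every depth of post-processed barcode. Pre-processed barcodes had at least 904 UMIs and post-processed ones at least 44. Only 4 pre-processed barcodes had under 500 genes, with 0 KLF2 UMIs, so the shallow barcodes have hardly any pre-processed counterpart. In post-processed barcodes KLF2 stood at 483 CPM (264 to 810) under 100 detected genes, 706 CPM (404 to 1147) at 100 to under 200, 951 CPM (727 to 1221) at 200 to under 500, 516 CPM (423 to 622) at 500 to under 1000 and 370 CPM (317 to 430) at 1000 genes and over. The highest level lay in the middle of the range, and its interval did not overlap those of the deeper bins. Summed microglial markers were at 8657, 8255, 10661, 8425 and 7404 CPM in the same bins, and for every 100 of their UMIs there were 5.58, 8.56, 8.92, 6.12 and 5.0 UMIs of KLF2. Within microglia-like nuclei alone KLF2 was lower in deeper nuclei, from 1126 CPM (742 to 1639) at 200 to under 500 genes through 713 CPM (569 to 881) to 421 CPM (356 to 495) at 1000 genes and over. Microglial markers were at 13055, 13614 and 9522 CPM in those bins and oligodendrocyte markers at 1084, 646 and 2727 CPM. Their part in the lower KLF2 level of the deepest nuclei was not tested, nor was that of free RNA in the shallow barcodes. KLF4 had 0 or 1 UMI in each bin under 200 genes, and 93.5 CPM (34.3 to 204), 61.5 CPM (32.7 to 105) and 49.2 CPM (31.2 to 73.9) above it, with overlapping intervals.

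**Figure D2:**
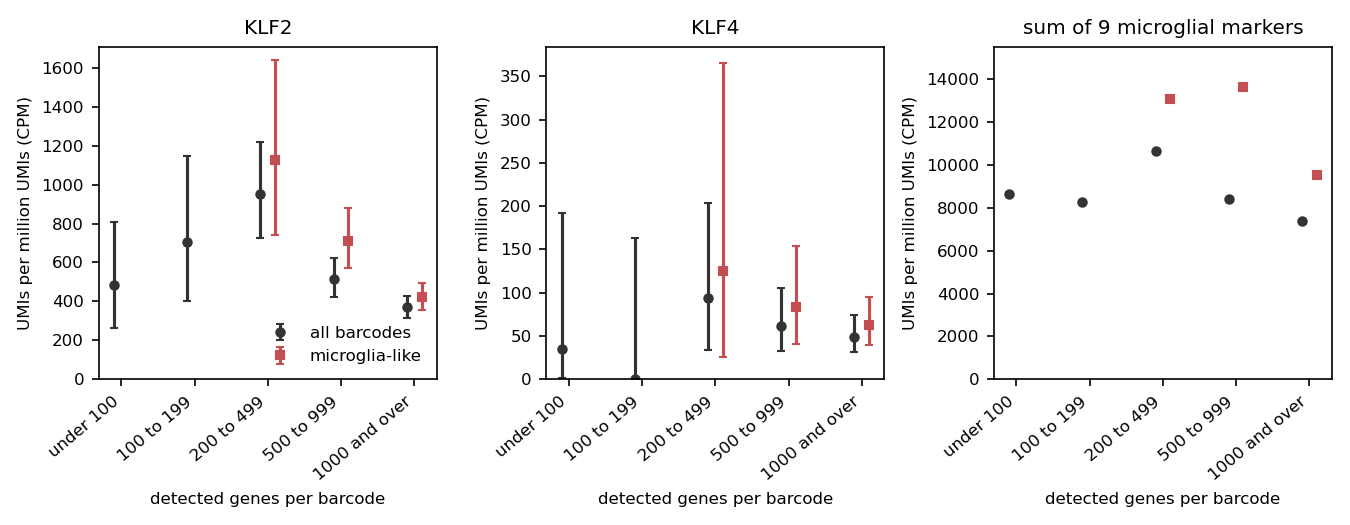
KLF2 (left), KLF4 (middle) and the sum of 9 microglial markers (right) in CPM against the number of detected genes per barcode, post-processed library. Black circles are all barcodes and red squares microglia-like nuclei, with exact 95% Poisson intervals for the single genes. In microglia-like nuclei KLF2 goes from 1126 CPM in the shallowest bin to 421 CPM in the deepest, while the markers stay between 9522 and 13614 CPM.

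Post-processed microglia-like nuclei had 0 THBS1 UMIs, which allows up to 6.07 CPM, endothelial-like nuclei had 0 (up to 60.3 CPM) and oligodendrocyte-like nuclei had 0 (up to 21.6 CPM). All 37 post-processed UMIs lay in shallow barcodes, 34 in 7 nuclei of the shallow cluster and 3 in 3 barcodes under 100 genes. The 228 barcodes with at least 500 genes had 0, which allows up to 4.42 CPM. The zeros in the named classes depend on how the shallow nuclei are classed. The shallow cluster lay closest to microglia, with 9 of 9 microglial markers raised and summing to 9975 CPM, against 10680 CPM in microglia-like nuclei. At resolution 0.2 it was not separate, and the microglia-like class then took in 431 post-processed nuclei and all 34 THBS1 UMIs of the 7 nuclei.

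Of those 37 UMIs, 26 (70.3%) came from 1 barcode. Of the other 9 barcodes, 7 had 1 UMI and 2 had 2 UMIs. That concentration ranked 8th among 1466 genes of similar UMI number in the library (within 1.5-fold), whose median gene had 8.89% in its top barcode and was spread over 27 barcodes. KLF2, at most 3.49% in 1 barcode, and KLF4, at most 9.30%, were near the medians of their own peers, 3.85% and 8.33%. Without the 1 barcode, the THBS1 level of the shallow cluster was 117 CPM (50.3 to 230) in place of 492 CPM (340 to 687). The log2 ratio over all nuclei was then 1.67 (0.28 to 2.75) in place of 3.69 (2.95 to 4.43).

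**Figure D3:**
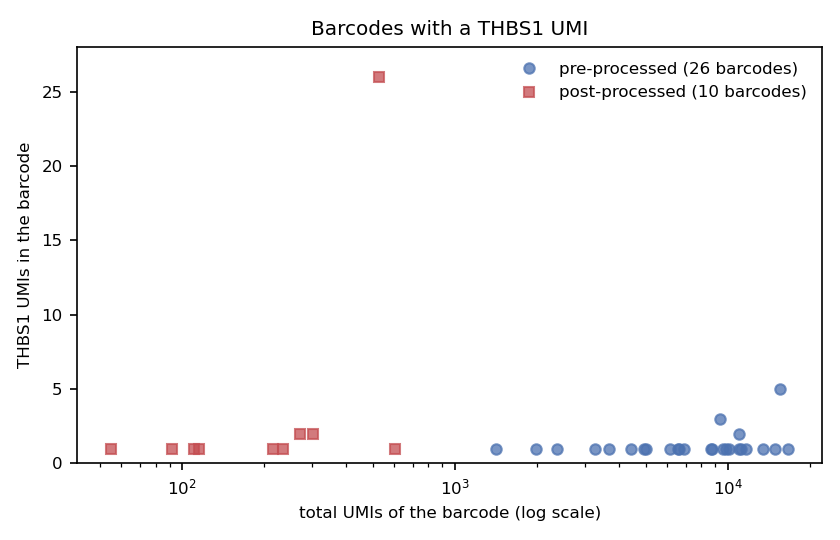
THBS1 UMIs in each barcode that had any, against the total UMIs of the barcode on a log scale. The 26 pre-processed barcodes (blue circles) have 1 to 5 UMIs and lie to the right, and of the 10 post-processed barcodes (red squares) 1 stands apart at 26 UMIs of 528.

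The barcode with 26 THBS1 UMIs had 528 UMIs over 344 genes. After THBS1 its most counted genes were VCAN, the proteoglycan versican, with 15 UMIs, or 31.3% of the VCAN UMIs of the library, and AREG, the growth factor amphiregulin, with 11 UMIs, or 57.9%. ST8SIA4 followed with 7 UMIs, the immediate early gene NR4A1 with 6, and CD47, a THBS1 receptor, and DOCK8 with 5 each. It also held 4 UMIs of FOS and 1 of KLF2, and it was the 1 barcode in either library with both KLF2 and THBS1. No barcode had both KLF4 and THBS1. Of 9 microglial markers the barcode had DOCK8 alone, of 7 endothelial markers SLC2A1 with 1 UMI, of 5 mural markers RGS5 with 1 UMI, and of 5 precursor markers VCAN alone. The 5 monocyte and neutrophil markers, the 1 platelet marker and the 3 lymphocyte markers measured were all at 0, and the barcode is left without a class name. THBS1 and GNLY were among the 10 leading genes of the shallow cluster, and GNLY had 28 of its 29 UMIs there in a different barcode. Other leading genes were spread wider, such as TMSB10 in 49 and FOS in 101 barcodes.

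**Figure D4:**
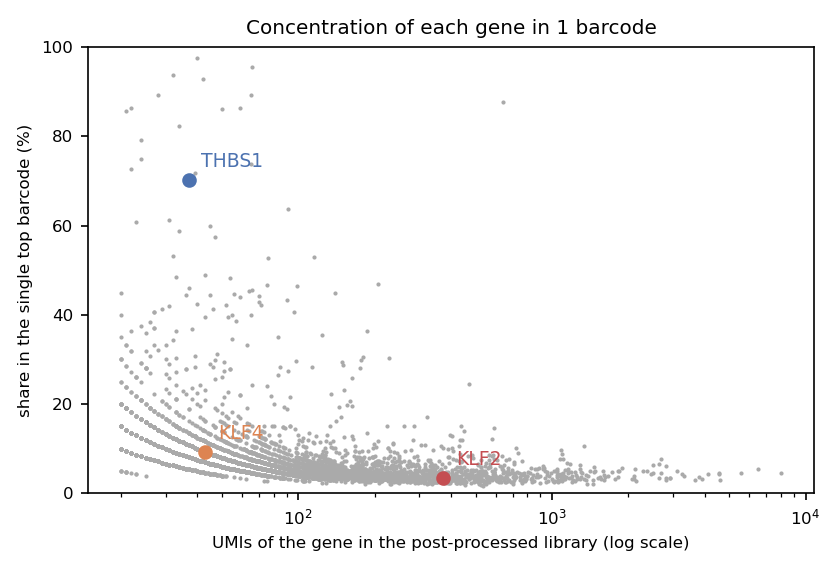
Share of a gene's post-processed UMIs found in its top barcode (percent) against the gene's UMIs (log scale), for genes with 20 or more UMIs. THBS1 lies at 70.3%, far above KLF4 at 9.30% and KLF2 at 3.49%.

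In the pre-processed library a neuron-like cluster of 93 nuclei, led by NXPH1, ALK, SST and LHX6, genes of a class of cortical interneurons, held 17 of 33 UMIs in 10 nuclei, or 28.2 CPM (16.4 to 45.1). The other 2032 nuclei had 16 UMIs in 16 nuclei, or 1.78 CPM. Microglia-like and endothelial-like nuclei had 0, which allows up to 22.8 and 189 CPM, limits within or above the interval of the cluster, so a lower level in these classes is not shown. The cluster was deeper than the rest, with a median of 6051 UMIs, and thinned to 1000 UMIs the shares were 1 of 91 and 1 of 1913 nuclei, too few to compare. Without its top nucleus, which had 5 UMIs, the cluster was at 20.4 CPM. Nuclei with at least 2 SST UMIs had 1 THBS1 UMI in 31 nuclei, and SST was in 1 of the 10 THBS1 nuclei against 25 of the other 83.

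In the RefSeq gene table of assembly ARS-UI_Ramb_v3.0 THBS1 overlaps 1 other gene, FSIP1, while KLF2 and KLF4 overlap none. No source used here says whether reads were counted by strand, so reads of THBS1 and of FSIP1 could not be told apart for certain. The SST-led cluster had the highest FSIP1 level of all clusters, 439 CPM. Of all 26 pre-processed nuclei with THBS1, 15 held FSIP1. All 10 THBS1 nuclei of the cluster did so, at 713 CPM together, against 72.3% of the other 83 at 381 CPM, with medians of 9958.5 and 4957 UMIs. In the post-processed library none of the 10 barcodes with THBS1 held a UMI of FSIP1, which had 62 UMIs in the library, 45 of them in microglia-like nuclei that had no THBS1.

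Of 15 listed relatives in the Kruppel-like family, 8 were measured and 5 had enough UMIs over all nuclei. KLF7, KLF3 and KLF11 were at least 2-fold higher and KLF16 at least 2-fold lower, against 30.4% and 24.7% of all genes, and on the median-ratio scale KLF3 alone stayed higher while KLF9 turned sign. In microglia-like nuclei none of 3 passed 2-fold, against 10.2% of all genes higher and 12.2% lower. There KLF3, a repressor, was at 206 CPM before and 315 CPM after, KLF7 at 198 and 289 CPM, and KLF9, a hormone-responsive factor, at 137 and 93.0 CPM. Their log2 ratios were 0.60 (0.02 to 1.26), 0.52 (-0.06 to 1.21) and -0.58 (-1.37 to 0.31), against 5.53 for KLF2. KLF16, under the minimum of 20 UMIs there, had 6 UMIs (45.7 CPM) before and 0 after, which allows up to 6.07 CPM.

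Of 5 measured genes of the flow pathway above KLF2 and KLF4, 4 were tested in microglia-like nuclei. None passed 2-fold, against 10.2% of all genes higher and 12.2% lower. MEF2C was at 2855 CPM before and 4640 CPM after (log2 0.70, 0.54 to 0.86), above the median of all genes there, -0.06. The kinase gene MAP2K5, which encodes MEK5, was at 472 and 459 CPM, and MAP3K2, which encodes MEKK2, at 274 and 364 CPM. Over all nuclei 1 of 5 was at least 2-fold higher, against 30.4% of all genes, and this was KDR, an endothelial receptor named after its values were seen, at 4.70 and 61.4 CPM.

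Of 9 listed genes known to be induced by KLF2 or KLF4 in endothelium, 6 were tested over all nuclei, with 3 higher and 2 lower, against 30.4% and 24.7% of all genes. The higher ones, named after their values were seen, were TEK, NPPC and NOS3, of which NPPC was under 2-fold on the median-ratio scale, and 14 of the 16 post-processed NOS3 UMIs lay in the 29 endothelial-like nuclei. PTGDS, a prostaglandin D synthase, was lower at 463 and 210 CPM, and ASS1, an enzyme of arginine synthesis, at 18.4 and 1.31 CPM. In endothelial-like nuclei 3 were tested, with 1 higher and 1 lower. The sphingosine receptor gene S1PR1 was at 944 CPM before and 1044 CPM after. TEK was at 126 and 582 CPM (log2 1.91, 0.23 to 5.32) and PTGDS at 1511 and 301 CPM (log2 -2.31, -3.36 to -1.34). In microglia-like nuclei only PTGDS had enough UMIs, at 1447 and 156 CPM, a log2 ratio of -3.21 (-3.62 to -2.83). Before processing PTGDS was also at 2076 CPM in astrocyte-like, 688 CPM in oligodendrocyte-like and 116 CPM in neuron-like nuclei. The part of free RNA in its microglia-like level was not tested. Of 9 genes known to be lowered by these factors, IL1B was at 0.522 CPM (5 UMIs) before and 39.2 CPM (30 UMIs) after over all nuclei. CXCL8 had 0 UMIs before and 18.3 CPM (14 UMIs) after. F3, tissue factor, was at 20.1 and 13.1 CPM, a log2 ratio of -0.56 (-1.71 to 0.29) that includes no difference. In microglia-like nuclei IL1B was at 22.8 CPM (3 UMIs) and 52.6 CPM (26 UMIs), with a log2 interval of -0.50 to 3.57.

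Other thrombospondins were not higher after processing. THBS3, THBS4 and THBS2 had 402, 125 and 31 UMIs before and 4, 1 and 0 after, and THBS3 and THBS4 were at least 2-fold lower over all nuclei, also on the median-ratio scale, against 24.7% of all genes. Neuron-like nuclei, of which the post-processed library had none, held 289 of the 402 THBS3 UMIs and 114 of the 125 THBS4 UMIs before processing, and their part in the lower levels was not tested. The 0 of THBS2 allows a level as high as before processing, so no difference was detectable at this depth. Of the 5 measured THBS1 receptors and partners, 2 were higher and 1 lower over all nuclei, against 30.4% and 24.7% of all genes. In microglia-like nuclei CALR alone passed 2-fold, where 10.2% of all genes were higher and 12.2% lower. CALR, named after its values were seen, was at 7.61 CPM (1 UMI) and 80.9 CPM. The receptor CD47 was at 1165 CPM before and 635 CPM after there (log2 -0.88, -1.16 to -0.59), the calcium channel subunit CACNA2D1 at 541 and 334 CPM, and the integrin subunit ITGAV at 266 and 419 CPM. Of 5 measured genes of TGF-beta activation and signalling, 3 were higher and 1 lower over all nuclei, against 30.4% and 24.7% of all genes. In microglia-like nuclei 3 were tested and none passed 2-fold, against 10.2% of all genes higher and 12.2% lower. NRROS, which anchors latent TGF-beta on microglia, was at 426 and 532 CPM, SMAD3 at 434 and 429 CPM and the receptor gene TGFBR1 at 183 and 222 CPM.

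Immediate early and stress genes were higher along with KLF2 and KLF4. The list was chosen with earlier results of these data known, so its counts are a description. Of 16 listed, 10 were tested over all nuclei and all 10 were at least 2-fold higher, against 30.4% of all genes. In microglia-like nuclei 9 of 10 were so, against 10.2% of all genes. In these nuclei FOS was at 7.61 CPM (1 UMI) before and 2707 CPM after, JUN at 68.5 and 1862 CPM and NR4A1 at 38.1 and 1258 CPM. IER2, named after its values were seen, was the 1 of 10 that stayed under 2-fold, at 91.4 and 140 CPM. The list's median log2 ratio was 4.33 in microglia-like nuclei, where the median over all genes was -0.06. Their part in the difference of KLF2 and KLF4 was not tested.

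Over 17 sums by cluster and library, the genes whose log2(CPM + 10) most resembled KLF2 were MCL1, TMSB10, LOC132660226, FOS and C1QB, with Pearson's r between 0.95 and 0.97. For KLF4 they were KLF2 itself, SIK1, TAGAP, MCL1 and CEBPD, with r between 0.95 and 0.96. For THBS1 the closest were DDX20, RHNO1, NDUFA8, ENTR1 and SHFL, at r from 0.81 to 0.89. THBS1 had r of 0.52 with KLF2 and 0.41 with KLF4. The 17 sums share 2 libraries of unlike depth and composition, so these are descriptions of the pattern, with no test.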

How the data were processed

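Droplet-based 3′ single-nucleus RNA sequencing (Illumina T2 kit) was analysed from the deposited matrices, which hold whole-number UMI counts per gene and barcode without normalization. The authors used DRAGEN, per the submitters' processing notes, and Seurat, per the series description. No source used here names versions, build or strand. The 13765 features were summed to 12652 symbols, among them 9847 of 21300 protein-coding genes (46.23%) of the RefSeq table, and CPM refer to these alone. Other genes were not analysed here.

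Nuclei (at least 100 detected genes) were clustered with Seurat 5.3.0 in R 4.3.3, using 2000 variable genes and 30 components at resolution 0.5, after log-normalization to 10000 and without integration. The rest was done in Python 3.11.15 with numpy 2.4.6, scipy 1.17.1 and pandas 2.3.3. A class name needed at least 3 markers raised 1.5-fold over the 25th percentile of other clusters and seen in 5 barcodes. It was withheld if another class's marker was among the 10 leading genes, or none of its own was in a cluster of less than 0.5 of the library's median depth. This rule was set after the clusters were seen. Doublets were neither called nor removed. Members, gene lists and markers were chosen with earlier results of these data known.

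Shares carry Clopper-Pearson, CPM Poisson and ratios (0.5 UMIs added) conditional binomial 95% intervals. A limit for 0 is 3 counts. Genes set against 2-fold had at least 20 UMIs over both libraries. Named genes were the members, the 5 most like each (at least 50 UMIs, sums of at least 15 barcodes) and the 3 with the most UMIs of each list. The functions were tested on simulated data. Alternatives were another scale, other gene minimums and resolutions, classes from marker UMIs, thinning, and leaving out barcodes.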

Additional observations from a re-analysis of the deposited data

How the results depend on the processing

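No paired analysis was possible because each condition has 1 library, and no replicate could be left out. Of 78 alternative values 60 stayed within the interval of the main one. The KLF2 log2 ratio over all nuclei was 6.17 on the median-ratio scale and 6.04 after thinning to 200 UMIs. That of KLF4 was 2.81 after thinning, a bound against 0. That of THBS1 was 2.91 and 5.56 under the same alternatives, at most 0.36 with a minimum of 500 genes, where the post-processed library had 0 UMIs, and 1.67 without its top barcode. The share of post-processed nuclei with KLF2 was 33.2% unthinned and 24.0% thinned to 500 UMIs, that with KLF4 was 5.26% unthinned, and that with THBS1 was 0 at 500 genes.

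The microglia-like log2 ratio of KLF2 was 3.47 at resolution 0.2, where that class held 431 post-processed nuclei in place of 180. Its post-processed microglia-like level was 680 CPM at resolution 1, 689 CPM in classes from marker UMIs and 657 CPM without the 5% of barcodes with the most UMIs. Its oligodendrocyte-like level was 222 CPM in classes from marker UMIs. THBS1 in the shallow cluster was 117 CPM without its top barcode, and in nuclei with at least 2 SST UMIs it was 3.77 CPM. Between barcodes under 100 and at least 500 genes, thinning to 100 UMIs turned the log2 ratio of KLF2 from 0.26 to -0.32 and of KLF4 from -0.06 to 1.26, both within counting error. The causes were not tested. At resolution 0.2 no endothelial-like class arose, so no value exists. Alternatives without the top THBS1 barcode, and those for the SST-led cluster, were chosen after seeing the data. With 1 pre-processed UMI of KLF4, and no THBS1 UMI in post-processed barcodes of at least 500 genes, depth limits both ratios.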
